A study of Homo sapiens with 8 samples.

Results

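The genes described here are 6 genes of DNA mismatch repair and uracil removal, MSH3, MSH6, MLH3, PMS1, PMS2 and UNG, out of 18231 genes measured in JVM13 cells. This established line came from a human B-cell prolymphocytic leukaemia. The list is defined by gene name and was drawn up with earlier results of these data known. Of the probe sets, 18 were annotated to exactly 1 member, and for each gene the one with the highest mean over the 8 arrays was used, with the others as a check. All cells carried a doxycycline-inducible vector and received 0.1 µg/mL doxycycline. The vector held wild-type cyclin D1 (3 arrays), cyclin D1 with the T286A substitution, which makes the protein more stable (3 arrays), or no insert (empty vector, titled control, 2 arrays). The comparisons ask how induced cyclin D1, in its normal or its stable form, changes gene expression. The labels give neither the length of induction nor the number of independently made cell populations behind each construct. They also do not say whether replicates were separate cultures, so the p-values rest on variation among these samples that may be technical only.

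Mismatch repair corrects bases that DNA polymerases paired wrongly. A MutS complex finds the mismatch: MSH6 is the subunit of the complex for single mismatches and short loops, and MSH3 that of the complex for larger loops. MutL proteins, among them PMS2, PMS1 and MLH3, act next, PMS2 and MLH3 being endonuclease subunits, and EXO1 then removes the strand that is rebuilt. UNG is the uracil-DNA glycosylase, which cuts out uracil that entered DNA in place of thymine or arose from cytosine. In activated B cells UNG and the MSH6 complex both process uracils in the antibody genes during their diversification. Cyclin D1 with CDK4 or CDK6 phosphorylates the retinoblastoma protein, which otherwise holds back E2F factors, the activators of many S-phase genes.

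The promoters of 4 members are shown because 3 of these genes had higher levels in every construct array than in either empty vector array, while PMS2, which carries letters of the same kind, did not. Windows of 300 bases around the RefSeq transcription starts (GRCh38.p14, 250 bases before to 50 after) were searched on both strands for the E2F letters TTTCGCGC, TTTGGCGC, TTTCCCGC and TTTGCCGC and for CCAAT. All 6 members had a window. Capitals mark the E2F letters and CCAAT (or its reverse, ATTGG), and each stretch is written 5′ to 3′ on the gene's strand.
MSH3, chr5:80654512-80654651, plus strand: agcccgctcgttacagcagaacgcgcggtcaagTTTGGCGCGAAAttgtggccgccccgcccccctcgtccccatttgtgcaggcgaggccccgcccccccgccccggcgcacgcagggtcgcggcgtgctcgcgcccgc
MSH6, chr2:47783085-47783159, plus strand: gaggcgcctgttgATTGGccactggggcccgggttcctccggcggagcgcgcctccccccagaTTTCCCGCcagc
UNG, chr12:109097982-109098171, plus strand: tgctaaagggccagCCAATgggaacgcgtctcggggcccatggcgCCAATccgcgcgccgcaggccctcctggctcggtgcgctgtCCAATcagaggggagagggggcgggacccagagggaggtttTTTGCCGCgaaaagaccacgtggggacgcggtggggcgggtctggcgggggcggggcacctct
PMS2, chr7:6009050-6009239, minus strand: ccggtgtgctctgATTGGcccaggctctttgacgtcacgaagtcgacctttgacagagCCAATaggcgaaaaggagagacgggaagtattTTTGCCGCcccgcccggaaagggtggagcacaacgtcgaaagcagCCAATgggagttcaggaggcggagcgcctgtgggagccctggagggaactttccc

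In MSH3 2 matches overlap, TTTGGCGC, which begins at position -107 from the start, and TTTCGCGC, read on the other strand at -103. In MSH6 TTTCCCGC began at base 4 of the transcript, with the reverse of CCAAT at position -47, in the window of the first of its 4 RefSeq starts; the other 3 windows held neither. In UNG TTTGCCGC began at position -63 from the second of its 2 RefSeq starts, downstream of 3 CCAAT copies, and the window of its first start held CCAAT but no E2F letters. In the PMS2 window shown, TTTGCCGC began at position -100. The E2F letters were not found in the windows of MLH3 and PMS1, and the PMS1 window held 2 copies of CCAAT. Of all 35116 windows, 3.31% held at least 1 of the 4 E2F words and 34.6% held CCAAT. These letter matches are a description and do not show binding.

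Markers fitted a B-cell line that also expresses plasma-cell genes. Of 7 measured B-cell markers, 6 lay above the median of all genes (5.94, log2): MS4A1, the CD20 gene, was between 13.21 and 13.43 and CD79A between 11.61 and 11.84 over the 8 arrays, while BANK1 was low, between 4.01 and 4.14. Markers of T cells, myeloid cells and red cells lay below that median in every array except ITGAM, an integrin gene of myeloid cells, which was between 7.06 and 7.88. All 4 plasma-cell markers, PRDM1, XBP1, SDC1 and IRF4, were high, from 9.30 for the lowest PRDM1 value to 12.88 for the highest IRF4 value. With wild type SDC1 was called higher (0.38, limma adjusted p = 0.0411) and CD22, a B-cell surface receptor, lower (-0.40, adjusted p = 0.0498); with T286A neither was called (0.17 and -0.18). Their part in the member values was not tested. CCND1 itself was 5.25 and 4.98 in empty vector, 10.98, 11.13 and 11.07 with wild type and 11.25, 10.86 and 10.95 with T286A, so the labels and the induced gene fit together. Wild-type replicate 2 stood apart from the other arrays, with correlations of 0.9942 and 0.9945 to its own group against 0.9968 between the other 2 wild-type arrays. Values without it are given below for some results only. Values are log2 expression from robust multi-array averaging, which equalises the arrays, so each difference is relative to the other genes.

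MSH6 was 1.26-fold higher in cells with induced cyclin D1. UNG and MSH3 had positive differences, 0.33 and 0.18 on the log2 scale, that did not pass the test (limma adjusted p = 0.0975 and 0.334), and for the MutL genes MLH3, PMS1 and PMS2 the groups overlapped. With both constructs together set against empty vector, 1 of 6 members, MSH6, was called higher at a limma adjusted p under 0.05 over all genes, and 0 were called lower. Of all genes, 1.40% were called in that comparison, 0.702% higher and 0.697% lower. With 3 members, MSH3, MSH6 and UNG, every construct array lay above both empty vector arrays, as was the case for 6.68% of all genes. The median difference of the 6 members was 0.11 (log2), against -0.00015 over all genes.

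**Figure D1:**
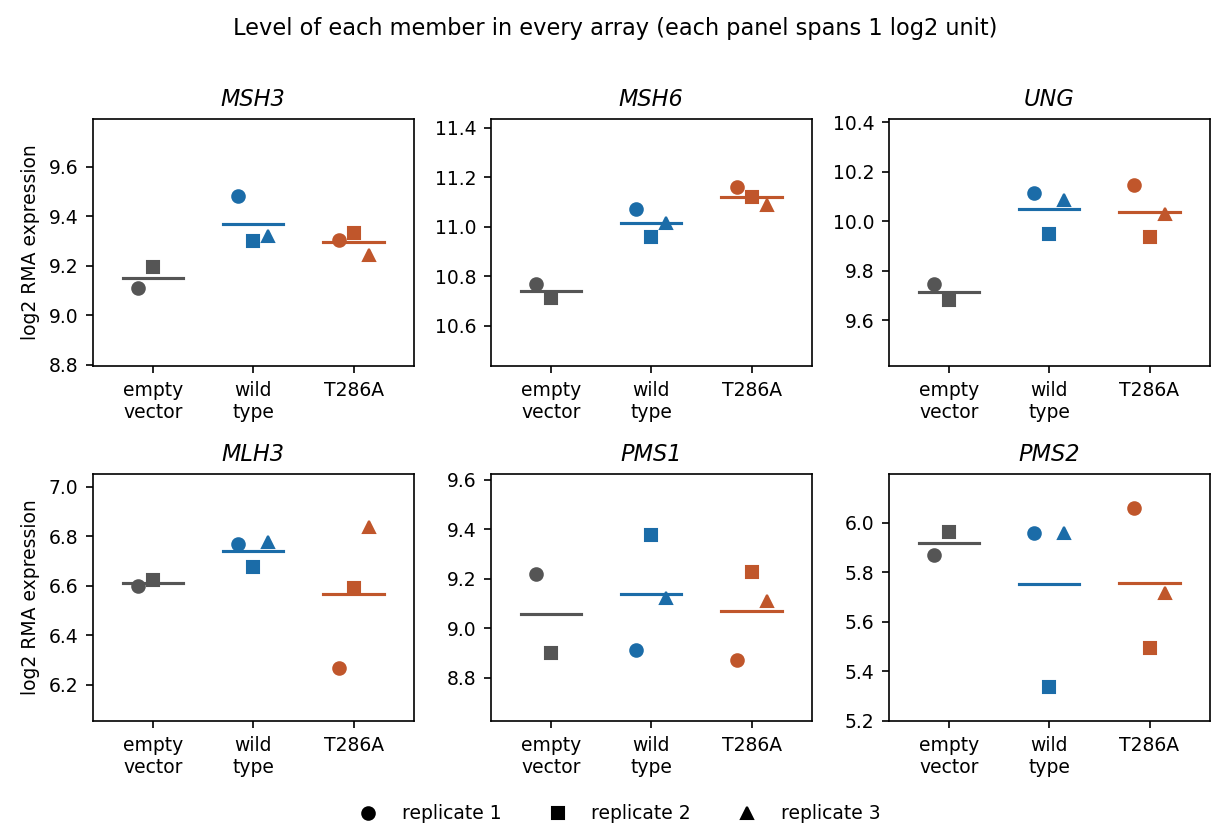
Log2 expression of the 6 members in each of the 8 arrays, by group, with 1 point per array, a symbol for each replicate number and a line at the group mean; each panel spans 1 log2 unit around its own values. In MSH3, MSH6 and UNG all 6 construct arrays lie above both empty vector arrays, while in PMS1 the groups overlap.

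MSH6 measured 10.77 and 10.71 in the empty vector arrays. With wild-type cyclin D1 it measured 11.07, 10.96 and 11.02, and with T286A 11.16, 11.12 and 11.09. The 3 groups did not overlap, with empty vector lowest and T286A highest. For both constructs together the rise was 0.33 ± 0.060 (SE, log2), which is 1.26-fold (6 against 2 arrays, limma adjusted p = 0.0446). Taken alone, the differences from empty vector were 0.27 ± 0.067 with wild type (limma adjusted p = 0.103) and 0.38 ± 0.067 with T286A (limma adjusted p = 0.0571), neither of them called. Between the constructs MSH6 was 0.11 higher with T286A, with a 95% interval from -0.032 to 0.25 (limma adjusted p = 0.482). The second MSH6 probe set differed by 0.34 ± 0.080, with every construct array again above both controls.

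The call for MSH6 was a narrow one. It was lost when any single array was left out, each of the 8 in turn, with differences from 0.30 to 0.36 and adjusted p from 0.0515, without wild-type replicate 2, to 0.356, without empty vector replicate 2. It was also lost when arrays were centred on housekeeping genes (0.29, adjusted p = 0.0717), with the probe set of highest variance (0.34, adjusted p = 0.206), or with p adjusted over the 45220 single probe sets (adjusted p = 0.0802). Of the 10 housekeeping genes measured, 1, GUSB, was itself higher in every construct array than in both controls, with a difference of 0.27.

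UNG measured 9.75 and 9.68 in empty vector, 10.11, 9.95 and 10.09 with wild type and 10.15, 9.94 and 10.03 with T286A. Both construct groups lay above empty vector and overlapped each other. For both constructs together UNG was 0.33 ± 0.077 above empty vector, a 1.25-fold difference that was not called (6 of 6 construct arrays higher, limma adjusted p = 0.0975). The differences were 0.33 ± 0.087 with wild type and 0.32 ± 0.087 with T286A (adjusted p = 0.121 and 0.161), and the difference between constructs, T286A less wild type, was -0.013, with a 95% interval from -0.19 to 0.16 (adjusted p = 0.961). The second UNG probe set gave 0.36 ± 0.071 with the same separation of the groups. Averaging both probe sets gave a difference of 0.34 with an adjusted p of 0.0321, so the call depended on this choice. Because the probe sets are annotated by gene, the nuclear and mitochondrial forms of UNG, which start from different first exons, were not told apart.

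MSH3 measured 9.11 and 9.20 in empty vector. It measured 9.48, 9.30 and 9.32 with wild type and 9.31, 9.33 and 9.24 with T286A. The lowest construct array lay just above the higher control, and the construct groups overlapped. The difference for both constructs was 0.18 ± 0.070 and was not called (limma adjusted p = 0.334). It was 0.22 ± 0.079 with wild type and 0.14 ± 0.079 with T286A. The second MSH3 probe set, dimmer at a mean of 7.01, differed by 0.060 ± 0.11 and its groups overlapped.

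**Figure D2:**
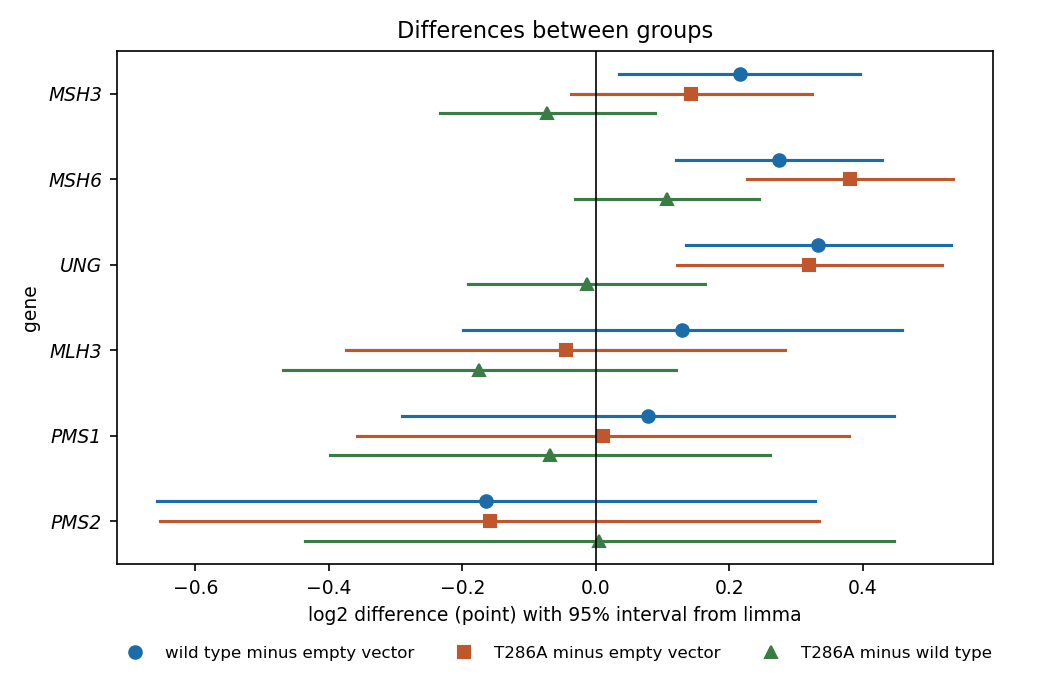
Log2 difference of each member with its 95% interval from limma, for wild type minus empty vector (circles), T286A minus empty vector (squares) and T286A minus wild type (triangles). The intervals of MSH6 and UNG lie above 0 in both comparisons with empty vector, and all 6 intervals of T286A minus wild type include 0.

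Among the MutL genes PMS2 is the partner subunit of the main mismatch repair endonuclease. Its single probe set of its own measured 5.87 and 5.96 in empty vector, 5.96, 5.34 and 5.96 with wild type and 6.06, 5.50 and 5.72 with T286A. These levels were close to the median of all genes, and the groups overlapped. The difference for both constructs was -0.16 ± 0.19 (95% interval -0.60 to 0.28, limma adjusted p = 0.817). Without any single array it ranged from -0.24 to -0.058, the latter without wild-type replicate 2, and it was -0.096 without T286A replicate 2. PMS2 has near-identical relatives in the genome, so its level is uncertain. Another 2 probe sets were annotated to PMS2 together with its relative PMS2CL; they differed by -0.098 ± 0.13 and -0.13 ± 0.090, neither called, with adjusted p of 0.875 and 0.685 over all probe sets. In the second of these every construct array lay below both controls, but barely, at 6.871 in wild-type replicate 3 against 6.874 in empty vector replicate 1. Of all 18231 genes, 1254 were separated downward in this way. Of 3 other measured PMS2-like copies, PMS2CL, PMS2P5 and PMS2P9, limma called 0, and 0 had an unadjusted p under 0.05 in any comparison.

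PMS1 forms a MutL complex whose part in mismatch repair is less clear. Its brightest probe set measured 9.22 and 8.90 in empty vector, 8.91, 9.38 and 9.12 with wild type and 8.87, 9.23 and 9.11 with T286A. The 3 groups overlapped, and the difference for both constructs was 0.044 ± 0.14 (limma adjusted p = 0.954). All 7 PMS1 probe sets had positive differences in that comparison, from 0.044 to 0.25; limma called 0, and 1 had an unadjusted p under 0.05. That one, the largest at 0.25 ± 0.083 (adjusted p = 0.297), was 0.38 ± 0.093 with wild type alone (adjusted p = 0.138), and its T286A arrays lay below its wild-type arrays (-0.26 ± 0.083, adjusted p = 0.292).

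MLH3 pairs with the same MutL partner as PMS2 and is known above all for its role in meiotic crossing over. It measured 6.60 and 6.62 in empty vector, 6.77, 6.68 and 6.78 with wild type and 6.27, 6.59 and 6.84 with T286A. The wild-type arrays lay narrowly above the controls, and the T286A arrays spanned both. The difference for both constructs was 0.042 ± 0.13 (limma adjusted p = 0.95). Its other 3 probe sets gave 0.22, 0.087 and 0.20, none of them called, and the last 2 had low mean levels, 4.55 and 4.09.

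**Figure D3:**
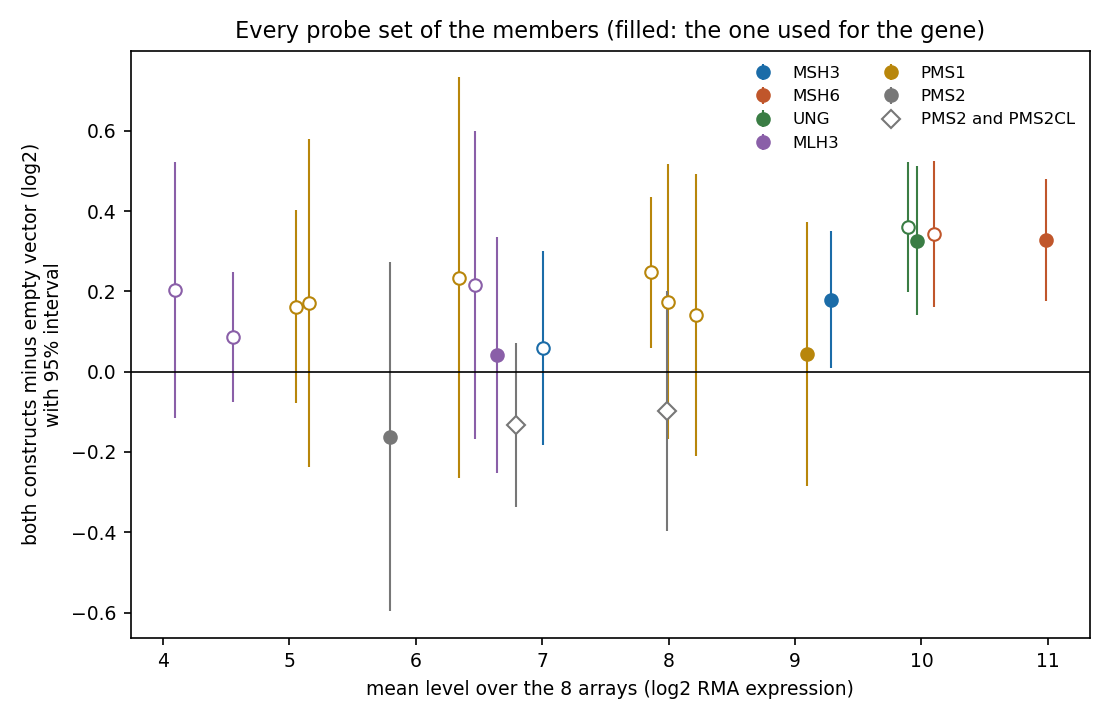
Difference of both constructs from empty vector with its 95% interval, against the mean level over the 8 arrays, for the 18 probe sets of the members (filled where used for the gene) and the 2 shared by PMS2 and PMS2CL (diamonds). Both MSH6 and both UNG probe sets lie between 0.33 and 0.36, and the 3 PMS2 values lie between -0.16 and -0.098.

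For single constructs no member passed the test. With wild type against empty vector limma called 0 of 6 members, where 1.74% of all genes were called. MSH3, MSH6 and UNG were higher with an unadjusted p under 0.05. Of all 18231 genes, 1109 higher and 1352 lower had such a p. In 4 of 6, MSH3, MSH6, UNG and MLH3, the wild-type arrays lay above both controls, against 15.2% of all genes. With T286A against empty vector 0 of 6 were called, where 0.532% of all genes were called. MSH6 and UNG were higher with an unadjusted p under 0.05, as were 1084 of all genes, while 1121 were lower. MSH3, MSH6 and UNG were separated from the controls, against 15.2% of genes. With T286A against wild type 0 of 6 were called and 0 had an unadjusted p under 0.05, where 0.987% of genes were called. Of all genes, 1306 higher and 1178 lower had such an unadjusted p. Only in MSH6 were the 3 T286A arrays all higher than the 3 wild-type arrays, against 9.94% of genes. Both constructs were set against the same 2 control arrays.

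The members do not act alone, and partners of mismatch repair were examined as a list of 21 genes, all measured. For both constructs together, limma called 4 of 21 higher and 0 lower, where 0.702% of all genes were called higher and 0.697% lower. The list's median difference was 0.18. In 15 genes every construct array lay above both controls, and in POLD4, a small subunit of DNA polymerase delta, every one lay below (-0.21 ± 0.062, limma adjusted p = 0.175). Among all 18231 genes, 6.68% were separated upward and 1254 genes downward. EXO1, the exonuclease of mismatch repair, measured 9.11 and 9.01 in empty vector, 9.49, 9.53 and 9.71 with wild type and 9.54, 9.48 and 9.44 with T286A, a rise of 0.47 ± 0.076 (adjusted p = 0.0299). RFC3 and RFC4, subunits of the clamp loader, rose by 0.43 ± 0.061 and 0.32 ± 0.056 (adjusted p = 0.0203 and 0.0368). LIG1, the ligase that seals the repaired strand, rose by 0.38 ± 0.060 (adjusted p = 0.0264). PCNA, the sliding clamp, differed by 0.26 and the catalytic polymerase subunit POLD1 by 0.27, neither called (adjusted p = 0.0934 and 0.0687).

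EXO1 and RFC3 were called with wild type alone (0.52 and 0.38, adjusted p = 0.0264 and 0.0371), and RFC3 and LIG1 with T286A alone (0.48 and 0.44, adjusted p = 0.0315 and 0.0388). Each of these counts of 2 was 0 or 1 without any single array. Of all genes, 1.74% were called with wild type and 0.532% with T286A. Of the 21 partners limma called 0 in T286A against wild type, and 0 had an unadjusted p under 0.05; the smallest were those of LIG1 and POLD1, both 0.12 higher with T286A (adjusted p = 0.416 and 0.424). The meiotic MutS genes MSH4 and MSH5 differed by 0.034 and -0.016 between both constructs and empty vector. The count of 4 called partners was 0 to 3 when 1 array was left out, and 0 without T286A replicates 1 or 3 or without either empty vector replicate.

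Of 22 measured genes of uracil and base excision repair, 1 was called higher for both constructs and 0 lower, with a median difference of 0.048. Of all genes, 0.702% were called higher and 0.697% lower. The called gene was DUT, the dUTPase, which keeps uracil out of newly made DNA. DUT measured 11.62 and 11.61 in empty vector, 11.93, 11.82 and 11.90 with wild type and 12.00, 11.98 and 11.94 with T286A, a rise of 0.31 ± 0.059 (limma adjusted p = 0.0477). This count of 1 was 0 without any single array other than wild-type replicate 2, without which it stayed at 1. The flap endonuclease FEN1 differed by 0.29 and PARP2, a sensor of strand breaks, by 0.26, neither called (adjusted p = 0.136 and 0.182).

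Among the other glycosylases that remove uracil or thymine from mispairs, none was called. SMUG1 differed by -0.23 ± 0.091 (adjusted p = 0.329), TDG by -0.016 ± 0.080 and MBD4 by 0.053 ± 0.072. POLB, the gap-filling polymerase of base excision repair, differed by -0.18 ± 0.064 with every construct array below both controls (limma adjusted p = 0.268). Such a downward separation was seen in 1254 of 18231 genes. Between the constructs limma called 0 of 22, and 1 higher and 1 lower gene had an unadjusted p under 0.05. Of all 18231 genes, 1306 higher and 1178 lower had such a p. HMCES, which shields abasic sites, differed by -0.34 ± 0.075, T286A less wild type (adjusted p = 0.101), and NEIL2, a glycosylase of oxidised bases, by 0.35 ± 0.14 (adjusted p = 0.314).

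**Figure D4:**
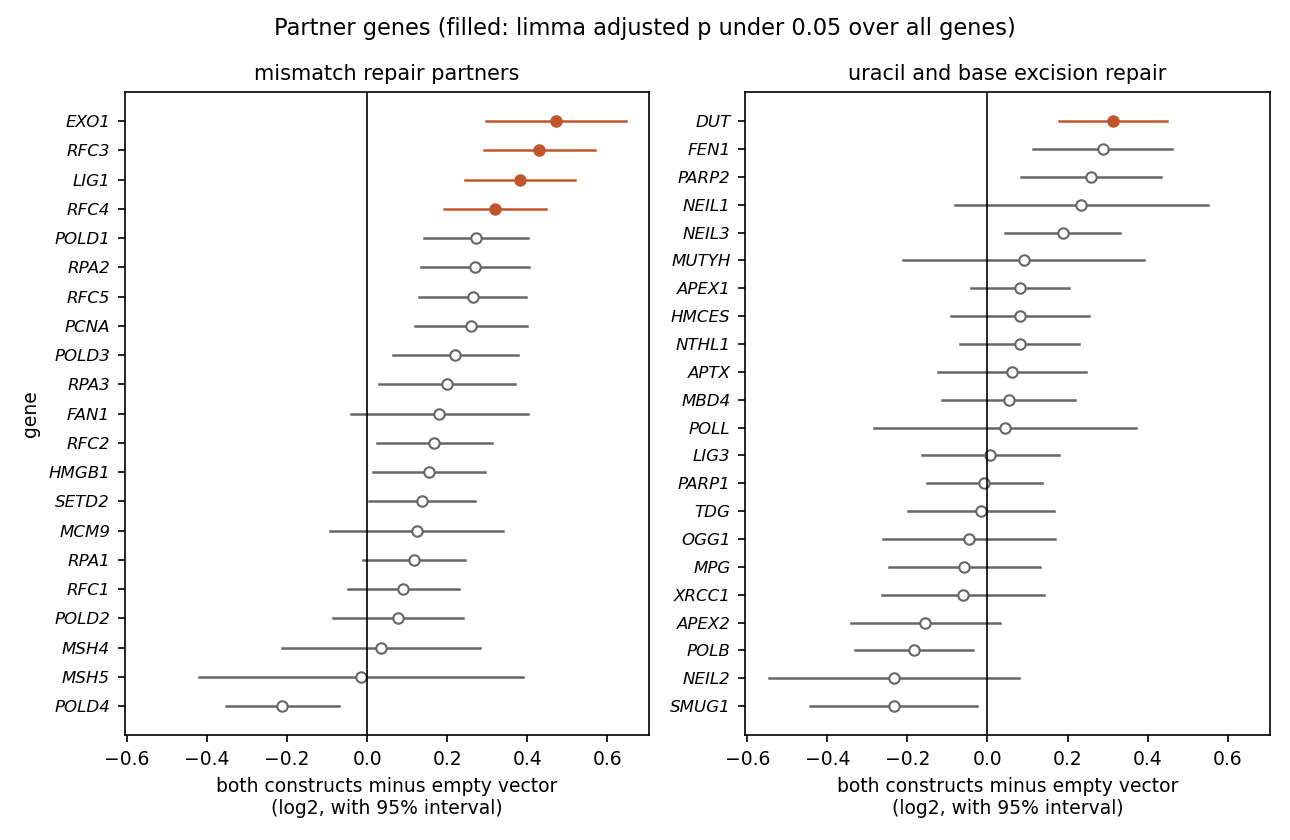
Difference of both constructs from empty vector (log2) with its 95% interval for 21 mismatch repair partners and 22 uracil and base excision repair genes, sorted within each list; filled points passed the limma test over all genes. EXO1, RFC3, LIG1 and RFC4 passed in the first list and DUT in the second.

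Genes that place uracil in DNA or act on UNG were read beside it. Of 7 measured APOBEC3 deaminase genes, 1 was called: APOBEC3B, which converts cytosine to uracil in single-stranded DNA, rose by 0.63 ± 0.079 with wild type and 0.56 ± 0.079 with T286A (limma adjusted p = 0.0109 and 0.0315). Of all genes, 1.74% and 0.532% were called in these 2 comparisons. APOBEC3C differed by 0.25 and 0.15 (adjusted p = 0.111 and 0.397). APOBEC3B is uncertain, because its probes can read close relatives. FAM72A, a protein that lowers UNG in B cells, is read by 3 probe sets that it shares with FAM72B, FAM72C and FAM72D. These differed by 0.26, 0.37 and 0.23 for both constructs, with every construct array above both controls, and were not called (limma adjusted p from 0.12 to 0.238 over all probe sets). Of all genes, 6.68% were separated upward in this way. The 3 probe sets read the same genes, so they are not separate cases. DCAF1, a ubiquitin ligase receptor, and CCNO, a cyclin gene once annotated as a uracil-DNA glycosylase, differed by 0.057 and 0.15, neither called.

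S-phase genes were higher in the same construct arrays. The mean of 24 S-phase genes was 10.15 and 10.11 in empty vector, 10.54, 10.57 and 10.54 with wild type and 10.64, 10.62 and 10.60 with T286A. Within the wild-type group the S-phase means lay close together, highest in replicate 2, which had the lowest MSH6 and UNG values. The S-phase genes themselves were mixed in this. For example, RRM2 and TK1 were also lowest in replicate 2 of that group, and CDC45 and MCM7 were highest there. Between constructs 20 of 24 S-phase genes had higher values with T286A (median 0.091, limma called 0, and 4 higher and 1 lower had an unadjusted p under 0.05), where UNG differed by -0.013. Of all 18231 genes, 1306 higher and 1178 lower had such a p. For both constructs 18 of the 24 S-phase genes were called higher and 0 lower, with a median of 0.42, where 0.702% of all genes were called higher. Examples were E2F2 at 0.95, TK1 at 0.73, E2F8 at 0.68, CDT1 at 0.61, E2F1 at 0.59 and MCM6 at 0.54. The part of a changed share of cells in S phase in the values of MSH6 and UNG was not tested, and a larger share of such cells and more RNA per cell cannot be told apart in these bulk samples.

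The genes with the pattern most like each member were found by Pearson correlation over the 8 arrays, among genes at or above the median level. For MSH6 they were DUT (r = 0.995), UHRF1, which copies DNA methylation marks at the fork (r = 0.994), and the mitotic kinase gene PBK (r = 0.987). Much of such a correlation is the step between empty vector and constructs, which all these genes share. Over the 6 construct arrays alone the values were 0.980, 0.976 and 0.956. The genes were picked for the highest r over 8 arrays that include these 6. High values here therefore follow in part from that choice. UHRF1 differed from empty vector by 0.32 with wild type and 0.43 with T286A, and PBK by 0.33 and 0.42. That their groups stood in the order of MSH6 follows largely from how these genes were picked. For UNG the most alike genes were LSM5 (r = 0.980), CTNNAL1 (r = 0.969) and FAM111B (r = 0.967).

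**Figure D5:**
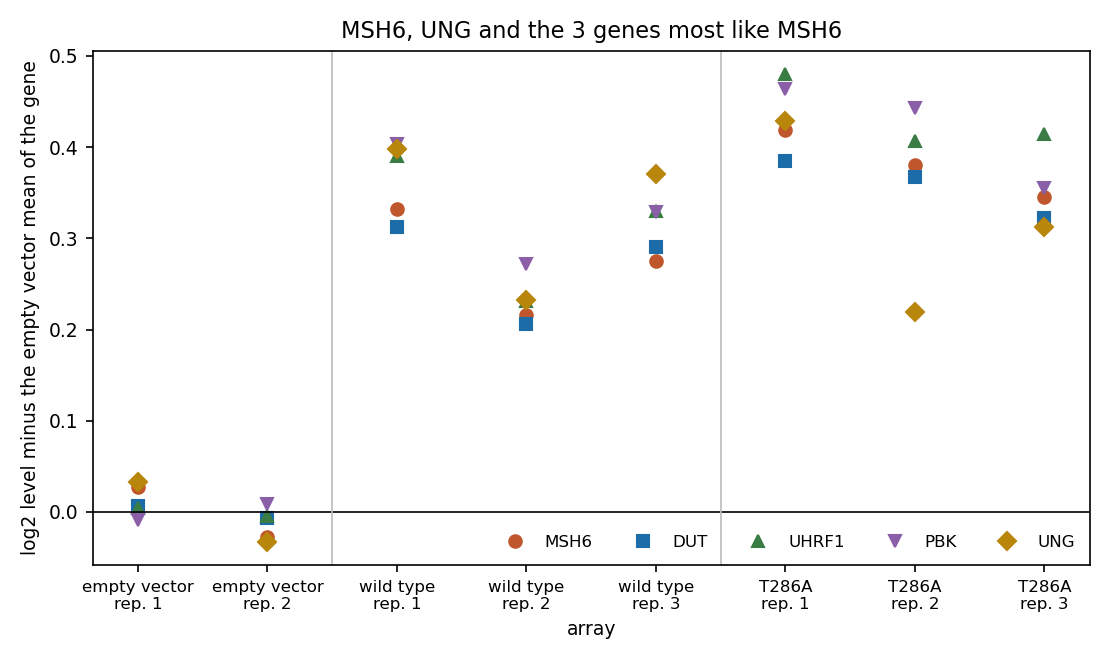
Level of MSH6, UNG and the 3 genes most like MSH6 in every array, as log2 level minus the gene's own empty vector mean; vertical lines part the groups. DUT, UHRF1 and PBK follow MSH6 from array to array, and wild-type replicate 2 is the lowest construct array for these and for MSH6.

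For MSH3 the most alike genes were ALKBH1 (r = 0.961), SLC1A4 (r = 0.953) and NXPE3 (r = 0.947). For MLH3 they were CLN6 (r = 0.933), WIPF2 (r = 0.926) and HOXB7 (r = 0.919), for PMS1 VCPKMT (r = 0.970), SRSF5 (r = 0.961) and VPS16 (r = 0.955), and for PMS2 MNDA (r = 0.960), PRKAR1B (r = 0.951) and SPRYD3 (r = 0.949). With each group's mean removed, r was 0.903 to 0.989 for the genes named for MLH3, PMS1 and PMS2, 0.852 to 0.919 for those of MSH6, 0.825 to 0.936 for those of UNG and 0.832 to 0.880 for those of MSH3. Among the members MSH6 and UNG were the most alike pair over the 8 arrays, with r = 0.896. With group means removed that pair had r = 0.763, and the most alike pair was PMS2 and UNG (0.919, against 0.132 over the 8 arrays as they stand). PMS1 and PMS2 ran opposite to each other (r = -0.843, and -0.864 with group means removed), and wild-type replicate 2 had the highest PMS1 and the lowest PMS2 value of all arrays. Without that array the wild-type difference from empty vector was -0.041 for PMS1 and 0.043 for PMS2, each with the sign turned. All these values come from the same 8 arrays, over which the most alike genes were picked, and carry no test.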

How the data were processed

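The authors deposited log2 expression values. The submitters' processing notes name RMA, robust multi-array averaging, and R 3.5.0; the annotation of probe sets is that of the array platform. Of 48864 probe sets, 10 control probe sets were left out, 45220 had a single gene, 1325 had more than 1 and 2309 had no gene. No detection call or scanner file was used; precision is limited by the number of arrays. All 8 arrays were fitted in limma 3.58.1 under R 4.3.3, 1 coefficient per group, with moderated two-sided tests (5 residual and 3.27 prior degrees of freedom), with Benjamini-Hochberg adjustment over 18231 genes and calls at an adjusted p under 0.05. No intensity filter was used. The fit was tested on simulated data. Sequences are RefSeq's (GRCh38.p14). The members and lists were chosen with earlier results of these data known. From each list up to 6 called genes per comparison were named by size, or 2 by smallest p, apart from PCNA, POLD4, MSH4, MSH5, SMUG1, TDG, MBD4 and POLB, named after their values were seen; 3 most alike genes were named per member. Alternatives covered the choice of probe set, a filter on dim genes, centring, moderation, array weights, the samples fitted, the replicate block and each array left out.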

Additional observations from a re-analysis of the deposited data

How the results depend on the processing

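MSH6 and UNG kept a positive difference from empty vector, for both constructs and for each alone, under every alternative run, and MSH3 did too. For many alternatives this sign was fixed in advance. Leaving out or weighting arrays could not turn it, since every construct array of these genes lay above both controls. The filter and the moderation do not alter the difference. Calls were less stable. For both constructs the count of members called, 1, was 2 with the mean of all probe sets, with genes at or above the median level, with trend and robust moderation and with array weights, UNG being the added gene, and 0 with the probe set of highest variance, with housekeeping centring and with the replicate block; it was 0 without each array in turn (0 to 0). The count for wild type, 0, was 1 with the mean of all probe sets or median centring and 2 with the filter or trend and robust moderation. For T286A, 0, it was 1 with the mean of all probe sets, the filter or array weights and 2 with trend and robust moderation. For T286A against wild type it was 0 throughout.

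The counts over all genes moved as widely. For both constructs 255 became 62 with the probe set of highest variance, 436 with array weights, 624 with the filter, 738 with trend and robust moderation, 7 with the replicate block and 3 to 199 without 1 array. The ranges over the other alternatives, the block included, were 68 to 747 for wild type (317), 3 to 626 for T286A (97) and 86 to 602 for T286A against wild type (180); without 1 array they were 22 to 196, 1 to 87 and 70 to 128. The alternatives moved the partner count of 4 to between 0 and 9 and that of DUT's list from 1 to between 0 and 3; for single constructs partners called, 2 each, were 0 to 8 and 0 to 9, and the other list, 0, reached 4 and 2, and 1 between constructs. Over all genes, deviations of same-numbered arrays correlated at -0.091 to 0.119, against -0.110 to 0.096 for arrays with different numbers. Replicate 2 of both constructs stood at the same end of its group in PMS1, PMS2 and UNG, but not in MSH3, MSH6 and MLH3. These values do not settle whether the arrays were paired. With the block the difference of MSH6 was 0.34 (limma adjusted p = 0.15). PMS2 has no value with the filter, being below the median level.

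Signs turned only in differences that were not called. For both constructs MLH3 was -0.034 with the block. For T286A, MLH3 was 0.13 with the mean of all probe sets and 0.26 with the highest variance, and PMS1 -0.037 with housekeeping centring. Between constructs, with the highest variance, MSH3 was 0.038, MLH3 0.092 and PMS1 0.31, and PMS2 was -0.059 with median centring, -0.0042 with housekeeping centring and -0.077 with array weights. Without 1 array, ranges that crossed 0 were, for both constructs, -0.025 to 0.12 for MLH3 and -0.11 to 0.20 for PMS1; for wild type, -0.080 to 0.24 for PMS1 and -0.27 to 0.043 for PMS2; for T286A, -0.18 to 0.10 for MLH3 and -0.15 to 0.17 for PMS1; and between constructs -0.18 to 0.051 for PMS1, -0.20 to 0.14 for PMS2 and -0.068 to 0.037 for UNG. Leaving out a control leaves a single one, assumed to vary like the other groups. The causes were not tested.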

Other observations

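Among genes called higher for both constructs, the E2F letters searched in the promoters of the members were common. Of 128 such genes 104 had a RefSeq window, and 36 of these, 34.6%, held at least 1 of the 4 words in a window, against 802 of 14491 measured genes with a window, 5.53%. Of the called repair and deaminase genes named above with a window, 4 of 5, DUT, EXO1, LIG1 and RFC3, held them, as did 4 of 6 members, MSH3, MSH6, PMS2 and UNG. These shares were computed after the member values were seen and carry no test. The genes compared were not matched for GC content or for the number of windows per gene. Whether E2F factors act on these genes was not tested.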
